A study of Tigriopus californicus with 32 samples.

Results

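The 3 genes described here code for 2 partners of the Hsp70 chaperone and for a mitochondrial unfoldase of the copepod *Tigriopus californicus*. They are TCALIF_05614, described as heat shock protein 40 (Hsp40), TCALIF_09395, described as a BAG domain-containing protein samui-like, and TCALIF_09890, described as the mitochondrial-like ATP-binding subunit ClpX of the Clp protease. They were chosen by their identifiers out of 21556 genes listed in at least 1 of 12 deposited tables, and each of the 3 is present in all 12 tables. The descriptions are those of the study. The choice was made with their higher values at 28ST than at 20NV already known, so that contrast is reported here as a description only.

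RNA-seq was carried out on whole adult copepods of 4 populations. SD-S, from San Diego, and BR-S, from Bird Rock, are southern, whereas SC-N, from Santa Cruz, and BB-N, from Bodega Bay, are northern. Each population was sampled in 4 treatments. In 28ST, copepods raised at a constant 20° were moved to 28° for 2 h. In 28V they were raised in a regime that changed daily between 20° and 28° and were sampled 2 h into the 28° part, in 20V they came from the same regime at the end of its 20° part, and in 20NV they stayed at a constant 20°. Each of the 16 groups had 2 libraries, 1 per pool of 100 adults, giving 32 libraries. No gene was altered in any group. In pools of whole animals, fewer cells of a type and less RNA per cell cannot be told apart.

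Hsp40 proteins, also called DnaJ proteins, bind unfolded polypeptides and hand them to Hsp70, and their J domain stimulates the ATPase of Hsp70. BAG domain proteins bind the ATPase domain of Hsp70 and promote the release of nucleotide, which frees the client. The gene samui was named in the silkworm *Bombyx mori*, where it responds to cold. ClpX is a ring-shaped ATPase of the mitochondrial matrix that unfolds proteins and feeds them to the protease ClpP. These roles are known from other species and were not measured in *T. californicus*.

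Values are reads per 1000000 of the scaled library size, called cpm below. The libraries held between 3648948 and 14509087 reads (median 7413467). The column names of the tables carry 2 suffixes, called a and b here, and in all 16 groups library b was the deeper one. Values of a group are given with library a before library b. SD-S and SC-N shared sequencing lanes, as did BR-S and BB-N, so for populations of different lanes a difference in level and a difference between lanes cannot be told apart. Each population was also mapped to its own reference. Gene lengths were not used here, so levels are compared between groups within a gene and not between genes.

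All 32 libraries were first placed on 1 scale. On it, the Hsp40 gene TCALIF_05614 had 141 to 234 cpm in the 8 libraries of 28ST (median 154) and 87.6 to 155 cpm in those of 28V (median 114). It had 38.4 to 74.6 cpm in 20V (median 61.1) and 53.1 to 73.1 cpm in 20NV (median 57.4). No library at 28° was as low as any library at 20°, and the ranges of the 2 treatments at 20° overlapped. The order of the group means ran from BB-N 28ST (222 ± 17.4 cpm, SD, n = 2) through BR-S 28ST (158 ± 2.68) to SC-N 20V (41.1 ± 3.75). Of the 15 pairs of neighbours in that order, 9 overlapped.

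The samui-like gene TCALIF_09395 had a wider spread. It had 68.0 to 324 cpm in 28ST (median 118) and 49.2 to 142 cpm in 28V (median 84.1). In 20V it had 33.9 to 63.5 cpm (median 45.6), and in 20NV 24.0 to 48.6 cpm (median 42.2). Libraries of 28V and 20V overlapped across populations. The highest group was again BB-N 28ST, with 324 and 231 cpm, and neither library of any other group reached those values. The lowest was SC-N 20NV, with 31.8 and 28.0 cpm. Of 15 pairs of neighbouring groups, 12 overlapped.

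The ClpX-like gene TCALIF_09890 varied widely between populations. It had 27.2 to 155 cpm in 28ST (median 89.1) and 10.5 to 148 cpm in 28V (median 96.4). In 20V it had 7.31 to 39.7 cpm (median 17.5), and in 20NV 12.1 to 28.6 cpm (median 17.8). SD-S 28ST had the highest mean (149 ± 7.43 cpm, SD, n = 2), followed by BB-N 28V (138 ± 15.1) and BR-S 28ST (109 ± 27.3). SC-N had the lowest level of this gene in both treatments at 28°, with 50.5 and 27.2 cpm in 28ST and 10.5 and 55.2 cpm in 28V. For 13 of the 15 neighbouring pairs the libraries overlapped, so most of the order is within the spread between pools.

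**Figure D1:**
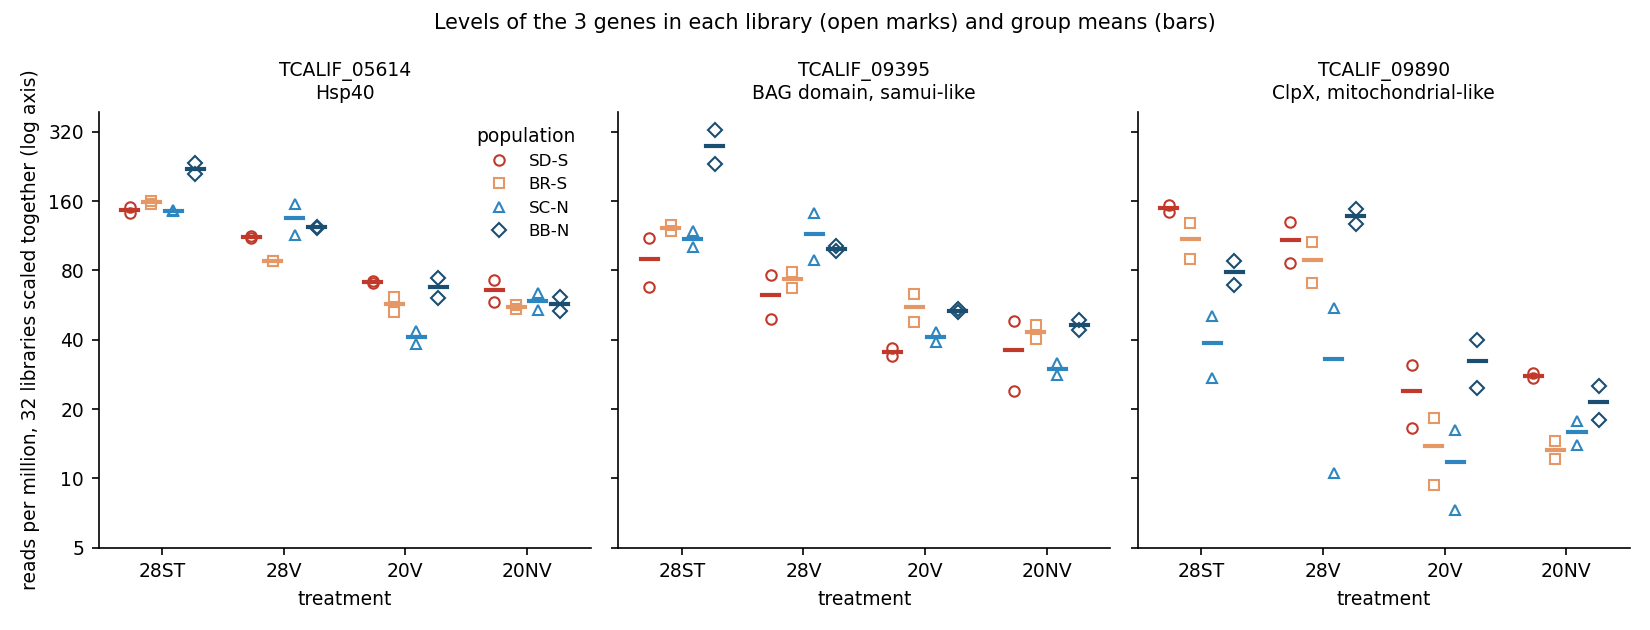
Level of the 3 genes in each of the 32 libraries (open marks, cpm on 1 joint scale, log axis) by treatment and population, with group means as bars (n = 2). The 8 Hsp40 libraries of 28ST lie between 141 and 234 cpm, above all libraries of 20V and 20NV, and the SC-N 28V libraries of the ClpX-like gene lie apart at 10.5 and 55.2 cpm.

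The response to a first exposure to 28° was measured by 28ST against 20NV, the contrast on which the genes were chosen. It is given within each table, without a test. The Hsp40 gene TCALIF_05614 had 149 and 139 cpm in SD-S 28ST, against 57.8 and 72.5 cpm in 20NV. In BR-S it had 136 and 131 cpm in 28ST, against 46.3 and 48.0 cpm in 20NV. In SC-N the values were 137 and 136 cpm in 28ST, against 50.3 and 60.0 cpm in 20NV. BB-N had 221 and 194 cpm in 28ST, against 49.4 and 57.2 cpm in 20NV. Each table has its own scale. On the joint scale the 28ST means were 146 cpm for SD-S, 158 cpm for BR-S, 145 cpm for SC-N and 222 cpm for BB-N. The log2 differences, on the scale of log2(cpm + 1), were largest for BB-N, at 1.94, followed by BR-S at 1.48, SC-N at 1.30 and SD-S at 1.14.

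The samui-like gene TCALIF_09395 had its larger differences in the northern populations. It had 110 and 66.7 cpm in SD-S 28ST, against 48.0 and 23.8 cpm in 20NV. In BR-S it had 107 and 99.6 cpm in 28ST, against 34.4 and 39.5 cpm in 20NV. In SD-S library a was above library b in both treatments. SC-N had 111 and 95.5 cpm in 28ST, against 29.7 and 26.3 cpm in 20NV. BB-N had 306 and 214 cpm in 28ST, against 41.0 and 45.2 cpm in 20NV. The log2 difference was 2.55 for BB-N and 1.85 for SC-N, and in the south 1.46 for BR-S and 1.31 for SD-S.

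For the ClpX-like gene TCALIF_09890 the order of the populations was another one. It had 142 and 152 cpm in SD-S 28ST, against 28.3 and 27.0 cpm in 20NV. In BR-S it had 76.5 and 108 cpm in 28ST, against 12.4 and 10.3 cpm in 20NV. Both southern populations had their largest log2 difference of the 3 genes here, 2.37 in SD-S and 2.90 in BR-S. SC-N had 47.4 and 25.6 cpm in 28ST, against 13.1 and 16.7 cpm in 20NV, a log2 difference of 1.18. BB-N had 65.0 and 81.9 cpm in 28ST, against 23.4 and 16.6 cpm in 20NV, a log2 difference of 1.83. In this contrast all 3 genes had both 28ST libraries above both 20NV libraries in every population. Of all genes, 18.9% did so in the BB-N table, 16.2% in the BR-S table, 14% in the SC-N table and 9.64% in the SD-S table, and nothing is read from this count because the contrast chose the genes.

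The response to 28° in copepods that met it daily was measured by 28V against 20V, in libraries outside the contrast that chose the genes, though with earlier results of all these data known. All 12 fitted differences of the 3 genes in the 4 populations were positive, and 4 of the 12 passed the test (limma, adjusted p under 0.05 over all genes of the table). The ClpX-like gene rose in BR-S, the Hsp40 gene and the samui-like gene rose in SC-N, and the samui-like gene rose in BB-N. Among all genes, the share called higher was 0.0962% in the BB-N table, 0.142% in the BR-S table and 0.519% in the SC-N table. In SD-S 0% of all genes were called, and none of the 3, although all 3 had an unadjusted p under 0.05, as did 4.23% of all genes.

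The Hsp40 gene TCALIF_05614 had 136 and 104 cpm in SC-N 28V, against 34.1 and 39.7 cpm in 20V. The lower 28V library was still more than 100 cpm and both 20V libraries were under 40. It rose by 1.66 on the log2 scale (SE 0.40, limma adjusted p = 0.00279). In BB-N it had 120 and 122 cpm in 28V, against 60.5 and 73.4 cpm in 20V, a log2 difference of 0.85 (SE 0.10) that missed the threshold (limma adjusted p = 0.0629). The pools of BB-N 28V were nearly equal, and the groups did not overlap.

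In the southern populations the same gene differed less. Its level was 116 and 113 cpm in SD-S 28V, against 72.6 and 74.4 cpm in 20V. In BR-S it had 78.8 and 78.3 cpm in 28V, against 54.7 and 46.5 cpm in 20V. Both log2 differences were 0.63 (SE 0.19 for BR-S and 0.11 for SD-S), and neither passed the test (limma adjusted p = 0.52 for BR-S and 0.43 for SD-S). The groups were separate in both populations.

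The samui-like gene TCALIF_09395 had 125 and 80.7 cpm in SC-N 28V, against 38.3 and 35.6 cpm in 20V. It rose by 1.42 on the log2 scale (SE 0.39, limma adjusted p = 0.021). In BB-N it had 100.2 and 95.4 cpm in 28V, against 54.1 and 52.0 cpm in 20V. There it rose by 0.87 (SE 0.08, limma adjusted p = 0.0382), with close agreement between the pools. In SD-S it had 78.2 and 50.5 cpm in 28V, against 37.8 and 35.0 cpm in 20V, a log2 difference of 0.77 (SE 0.16, limma adjusted p = 0.634). In BR-S it had 60.0 and 70.7 cpm in 28V, against 56.4 and 42.4 cpm in 20V. That was the smallest log2 difference of the 12, 0.41 (SE 0.21, limma adjusted p = 0.943), with a 95% interval of -0.06 to 0.87.

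The ClpX-like gene TCALIF_09890 had 63.2 and 95.3 cpm in BR-S 28V, against 8.34 and 16.2 cpm in 20V. It rose by 2.63 on the log2 scale (SE 0.21, limma adjusted p = 0.000542), and by that value it ranked 5 of 17554 genes of the table. The higher library of each BR-S group was library b, and the log2 differences within library a and within library b were 2.78 and 2.48. In SD-S it had 133 and 88.5 cpm in 28V, against 17.0 and 32.2 cpm in 20V, a log2 difference of 2.16 (SE 0.35, limma adjusted p = 0.35). In BB-N it had 146 and 125 cpm in 28V, against 24.6 and 39.1 cpm in 20V, a log2 difference of 2.08 (SE 0.22, limma adjusted p = 0.0532). Neither passed the test in the limma fit, although the groups were separate and the differences ranked 12 among the genes of the BB-N table and 13 among those of the SD-S table.

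In SC-N the 2 libraries of 28V lay far apart for this gene. Library a of SC-N 28V had 9.25 cpm, from 56 reads, and library b had 50.0 cpm, from 689 reads, against 6.49 and 14.7 cpm in 20V. Here the groups overlapped, and the log2 difference of 1.08 (SE 0.44) did not pass the test (limma adjusted p = 0.297). In a fit on all 8 SC-N libraries the difference was -0.013 without library b of 28V and 2.15 without library a. Library a, the low one here, had the higher value of the 2 SC-N 28V libraries for the other 2 genes. For TCALIF_00519, described further below, it was again the lower one, with 64.5 against 137 cpm on the joint scale. Calls over all genes also moved strongly with which SC-N 28V library was kept, as given at the end. Whether library a differs as a whole was not tested, so the split is not read as particular to this gene or to SC-N.

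How far these calls reach depends on the test. For 28V against 20V in SC-N the variance of each gene was drawn fully to the trend, so a gene's own spread between pools did not enter its p-value. With the likelihood ratio test of edgeR, which the study used, all 3 genes were called in BB-N and 0 in SC-N, and the ClpX-like gene alone was called for each southern population. Of all genes that test called 0.606% higher in the BB-N table, 0.376% in the BR-S table, 0.153% in the SC-N table and 0.517% in the SD-S table. With no block on the suffix, 0 of the 4 calls above remained. That fit called 0% of the SC-N table, 0% of the BR-S table and 0.119% (21 genes) of the BB-N table. The loss of the SC-N and BR-S calls thus says nothing particular of the 3 genes. In an 8-library fit of SC-N the Hsp40 difference was 1.91 without library b of 28V and 1.40 without library a. That of the samui-like gene was 1.63 without library b and 1.20 without library a. Such a fit leaves 1 library in a group, so no call is read from it.

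By the count of separate groups, both 28V libraries were above both 20V libraries for 3 of 3 genes in SD-S, BR-S and BB-N and for 2 of 3 in SC-N. Over all genes this held for 16.6% of the BB-N table, 13.4% of the BR-S table, 13.1% of the SC-N table and 12.6% of the SD-S table.

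**Figure D2:**
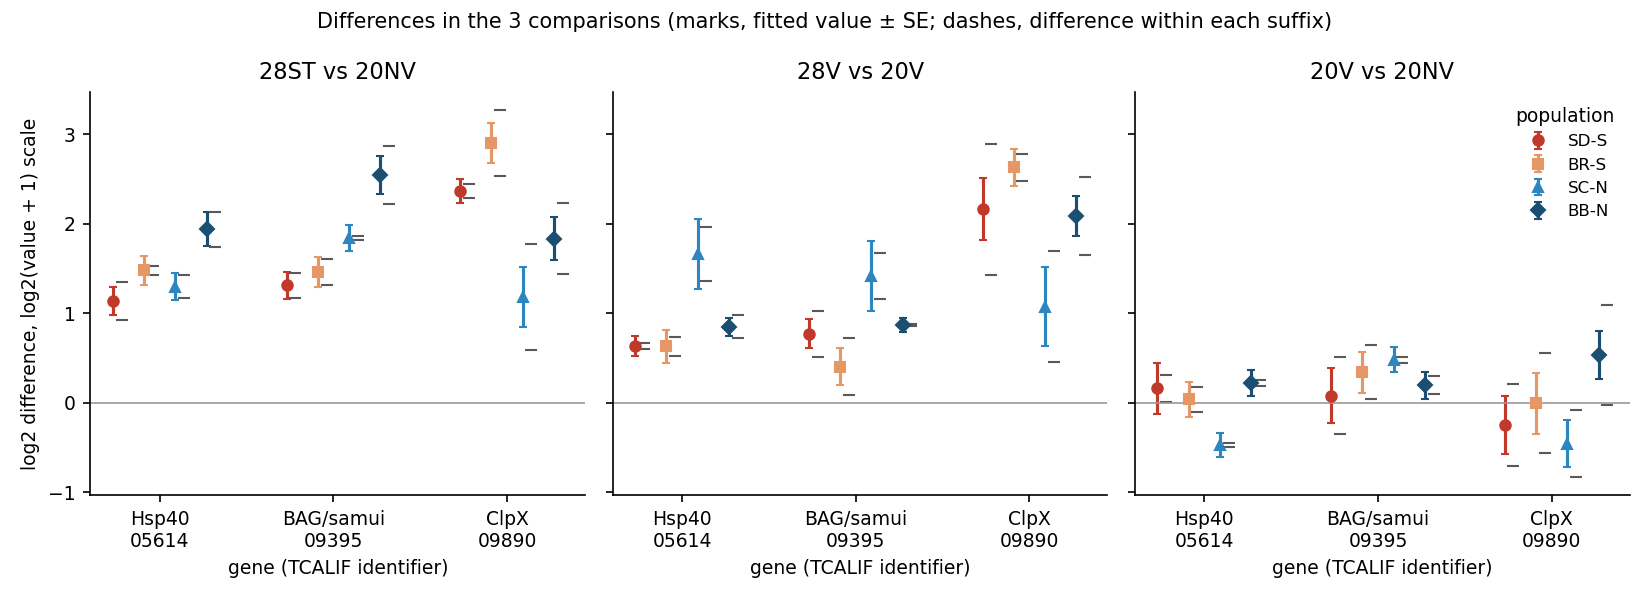
Log2 differences of the 3 genes (log2(cpm + 1) scale) in the 3 comparisons for each population. Marks with bars are the fitted value ± SE and dashes the difference within library a and within library b, and the values of 20V vs 20NV lie between -0.47 and 0.53, around 0.

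Whether the populations differed in their response to daily warming was tested for each of the 6 pairs of populations, 18 tests over the 3 genes. None passed (limma interaction, 0 of 18 called, lowest adjusted p = 0.804). Over all genes the share called by limma was 0.0188% for SD-S against BB-N and 0% for the other 5 pairs. The likelihood ratio test of edgeR also called 0 of the 18, and between 0.0675% and 1.21% of all genes by pair. In limma 5 of the 18 had an unadjusted p under 0.05, as did 1.55% to 4.19% of all genes by pair. All 5 were in pairs with SC-N and thus share its libraries. For the Hsp40 gene the response of SD-S minus that of SC-N was -1.03 on the log2 scale (95% interval -1.81 to -0.25), and that of BR-S minus SC-N was -1.03 (-1.88 to -0.19). For the ClpX-like gene the response of BR-S minus that of SC-N was 1.56 (0.40 to 2.71). That value depends on which SC-N 28V library is used, as these had 9.25 and 50.0 cpm. In the fit on 8 libraries the SC-N response was -0.013 without library b and 2.15 without library a. The intervals are not adjusted for the 18 tests. The 2 southern populations differed by 0.00 for the Hsp40 gene (-0.45 to 0.46), an interval that still allows a difference either way. SD-S and SC-N shared lanes, whereas BR-S and SC-N did not.

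Set side by side, the folds of the 2 regimes were not alike for the 3 genes. The 2 regimes were not tested against each other, because the constant regime holds the contrast that chose the genes. For the Hsp40 gene TCALIF_05614, 28V over 20V was 1.55-fold in both southern populations, 3.17-fold in SC-N and 1.80-fold in BB-N. The folds of 28ST over 20NV were 2.20 for SD-S, 2.79 for BR-S, 2.46 for SC-N and 3.84 for BB-N. The fold was thus the smaller one in the variable regime in SD-S, BR-S and BB-N and the larger one in SC-N, in both libraries of each population. In SC-N the level in 28V was 1.06 times that in 28ST for library a and 0.791 times for library b. The SC-N mean on the joint scale was lower in 20V (41.1 cpm) than in 20NV (58.9 cpm).

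For the samui-like gene TCALIF_09395, 28V over 20V was 1.83-fold for BB-N, 1.32-fold for BR-S, 2.67-fold for SC-N and 1.71-fold for SD-S. The folds of 28ST over 20NV were 5.84 for BB-N, 2.75 for BR-S, 3.59 for SC-N and 2.49 for SD-S, larger in each population and in both libraries. In BB-N the level in 28V was 0.314 times that in 28ST for library a and 0.42 times for library b.

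For the ClpX-like gene TCALIF_09890 the folds were closer, with 28V over 20V at 4.24 for BB-N, 6.20 for BR-S, 2.11 for SC-N and 4.48 for SD-S. Those of 28ST over 20NV were 3.57 for BB-N, 7.48 for BR-S, 2.27 for SC-N and 5.16 for SD-S. Libraries a and b went opposite ways in all 4 populations when the 2 regimes were set against each other. In BB-N the level of this gene was higher in 28V than in 28ST, by 2.15 times for library a and 1.44 times for library b. In the same population the Hsp40 gene and the samui-like gene were lower in 28V than in 28ST.

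The effect of the regime at 20° was measured by 20V against 20NV. These tests share the 20NV libraries with the contrast that chose the genes. None of the 3 genes was called in any population (limma, 0 of 12 tests), and 2 of the 12 had an unadjusted p under 0.05, both in SC-N. Of all 18326 genes tested there, 5791 or 31.6% had such a p, so that count says little of the 3 genes. Over all genes 2.48% were called in the BB-N table, 0% in the BR-S table, 0.136% in the SC-N table and 1.9% in the SD-S table. The edgeR and DESeq2 fits also called 0 of the 12, although in the SC-N table the likelihood ratio test called 2095 of all genes (11.4%) and DESeq2 called 932 (5.4%).

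The Hsp40 gene TCALIF_05614 had 34.7 and 40.5 cpm in SC-N 20V, against 47.9 and 57.2 cpm in 20NV. Both 20V libraries were below both 20NV libraries, and the log2 difference was -0.47 (95% interval -0.83 to -0.11, limma adjusted p = 0.109). Over all genes, 29.4% had separate and lower libraries in this table and 31.7% had separate and higher ones. In BB-N the gene had 59.8 and 71.9 cpm in 20V, against 52.3 and 60.1 cpm in 20NV, a log2 difference of 0.22 (limma adjusted p = 0.578). The differences were 0.04 for BR-S and 0.16 for SD-S, and the groups overlapped in all 3 of these populations.

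The samui-like gene TCALIF_09395 had 39.0 and 36.3 cpm in SC-N 20V, against 28.3 and 25.0 cpm in 20NV. Here the 20V libraries were the higher ones, with a log2 difference of 0.48 (95% interval 0.09 to 0.87, limma adjusted p = 0.116). In SC-N the Hsp40 gene and the samui-like gene thus had opposite signs, neither past the threshold. In BB-N the samui-like gene had 53.4 and 50.9 cpm in 20V, against 43.4 and 47.6 cpm in 20NV, a log2 difference of 0.20. The difference was 0.34 for BR-S and 0.08 for SD-S. In SD-S the 20V value was the lower one in library a (37.4 against 47.7 cpm in 20NV) and the higher one in library b (34.7 against 24.1 cpm).

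The ClpX-like gene TCALIF_09890 had overlapping libraries in all 4 populations. Its log2 differences were 0.53 for BB-N, -0.00 for BR-S, -0.46 for SC-N and -0.25 for SD-S. In BB-N it had 24.3 and 38.4 cpm in 20V, against 24.8 and 17.5 cpm in 20NV, so that the difference lay in library b. With 29 reads in the shallowest BR-S 20V library and 31 reads in that of SC-N 20V, this gene was the least precisely measured of the 3 at 20°.

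Other transcripts with the same descriptions were read beside the 3 genes. Of the 3 further ones described as heat shock protein 40, the de novo assembled comp49814_c3_seq5_40727 followed TCALIF_05614. In SC-N it had 66.4 and 74.4 cpm in 28V, against 27.8 and 25.3 cpm in 20V, and it rose by 1.37 on the log2 scale (SE 0.39, adjusted p under 0.05 in limma). In BB-N it had 79.6 and 75.5 cpm in 28V, against 48.7 and 43.8 cpm in 20V, a log2 difference of 0.73 that did not pass the test. The reads of a second copy and of a part of the same gene cannot be told apart from these tables.

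TCALIF_00519, also described as heat shock protein 40, did not share this pattern throughout. On the joint scale its BB-N 28ST libraries (120 and 126 cpm) lay above those of 20NV (89.6 and 97.7 cpm). Its libraries at 28° were also separate and higher in SC-N 28ST and in 28V of BB-N, BR-S and SD-S. They overlapped those of 20NV in 28ST of SD-S and BR-S, and were lower in SC-N 28V. Within its table this gene had 77.9 and 84.1 cpm in SD-S 28ST, against 112 and 77.5 cpm in 20NV. In SC-N it had 56.6 and 124 cpm in 28V, against 135 and 134 cpm in 20V, a log2 difference of -0.67 that did not pass the test. The third, comp32785_c0_seq1_17987, was listed in the southern populations only, with 12.9 and 17.0 cpm in BR-S 28ST, against 7.28 and 10.4 cpm in 20NV.

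The further ClpX-like transcript, Contig1467_3339, was listed only in SD-S, in the tables of 28ST vs 20NV and 28V vs 20V. It had 6.66 and 5.67 cpm in SD-S 28ST (49 and 60 reads), against 0.85 and 1.21 cpm in 20NV (5 and 13 reads). In 28V it had 4.45 and 3.61 cpm, against 1.32 and 2.04 cpm in 20V, a log2 difference of 0.91 (SE 0.30) that did not pass the test. As for TCALIF_09890 in SD-S, both libraries at 28° were above both at 20° in each comparison.

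The 3 genes were set against 33 other genes of the same pathways, namely 9 DnaJ/Hsp40 co-chaperones, 10 other co-chaperones of Hsp70 and Hsp90, 9 Hsp70 chaperones with the endoplasmic reticulum form GRP78, and 5 mitochondrial chaperones and proteases. The list comes from the gene descriptions in the supplementary tables read here, which cover mostly genes with large or called changes in these same samples, so its direction is not independent evidence. In 28V against 20V 3 of 26 listed genes were called higher for BB-N, 3 of 30 for BR-S, 7 of 28 for SC-N and 0 of 33 for SD-S, and none was called lower. These counts moved with the fit. With the likelihood ratio test 8 were called higher for BB-N, 4 for BR-S, 3 for SC-N and 10 for SD-S, whereas with no block only 3 genes of BB-N were called, and with all 8 libraries only 5 of BB-N. The median log2 difference of the list was 0.51 for BB-N, 0.38 for BR-S, 0.73 for SC-N and 0.42 for SD-S. Over all genes it lay between -0.01 and 0.01.

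Of the 13 calls in the list, 11 were Hsp70 or GRP78 genes. The 2 with the largest rise were the Hsp70 genes TCALIF_04517 and TCALIF_06728 both in BR-S (log2 differences 2.70 and 2.11) and in SC-N (3.63 and 3.68). In BB-N they were TCALIF_04517 (2.27) and the GRP78 gene TCALIF_00753 (1.45). The 2 calls that were not Hsp70 genes were both in SC-N, the Hsp40 transcript comp49814_c3_seq5_40727 and comp43091_c0_seq2_28458, described as Hsp105, a relative of Hsp70 that acts as its nucleotide exchange factor (log2 difference 1.65). The last was named after its value was seen.

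By class, the Hsp70 chaperones had median log2 differences of 0.85 to 1.74 in the 4 populations, and the other DnaJ/Hsp40 genes 0.34 to 0.69. The Hsp40 gene TCALIF_05614 lay between 0.63 and 1.66, above the median of the other DnaJ/Hsp40 genes in each population. The samui-like gene lay between 0.41 and 1.42, above the median of the other co-chaperones in each population (0.27 to 0.62). The other mitochondrial chaperones and proteases, which include Hsp60 and HtrA2, had medians of 0.10 to 0.74 and none was called. Only 3 of these genes were in the BB-N and SC-N tables, 4 in the BR-S table and 5 in the SD-S table. The ClpX-like gene had 2.08 to 2.63 in BB-N, BR-S and SD-S and lay above all of those in the table there. In SC-N its fitted value of 1.08 was also above them but rested on library b of 28V, as given above. These medians were positive in every class and population under all 9 other settings of the fit. The 3 genes were chosen with their higher values at 28ST known, so their place above their classes is a description only.

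**Figure D3:**
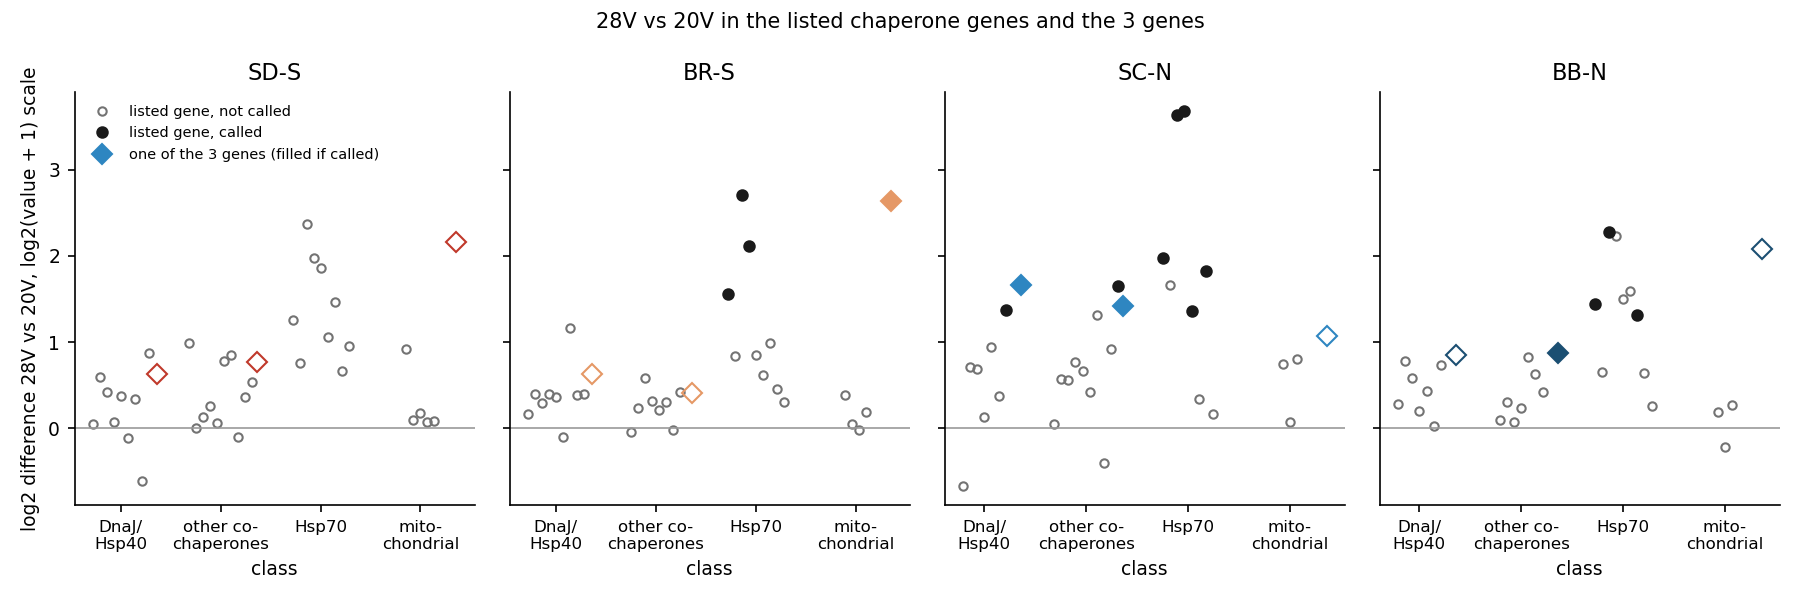
Log2 differences in 28V vs 20V (log2(cpm + 1) scale) of the listed genes by class (circles, filled where called by limma) and of the 3 genes (diamonds, filled where called) in each population. The diamond of the ClpX-like gene lies above the other mitochondrial genes of each table (3 for BB-N and SC-N, 4 for BR-S and 5 for SD-S). It lies at 2.08 for BB-N, 2.63 for BR-S and 2.16 for SD-S. For SC-N it lies at 1.08 and rests on library b of 28V (-0.013 without it in the fit on 8 libraries).

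In 20V against 20NV the list had no common direction. Its median log2 difference was -0.013 for BB-N (0.045 without TMM scaling), 0.088 for BR-S, -0.14 for SC-N and 0.077 for SD-S. The called genes were 2 of 26 for BB-N, 3 of 32 for SD-S and none for the other populations, all of them higher in 20V. The 3 of SD-S came down to 1 with no block and to 0 with all 8 libraries, and there too each gene's variance was drawn fully to the trend. In SC-N the likelihood ratio test called 2 higher and DESeq2 called 1 lower, and in BB-N the likelihood ratio test also called 1 lower. The genes called by limma were TCALIF_04517 (2.06), TCALIF_06728 (1.86) and the DnaJC7-like comp47962_c0_seq1_36323 (2.56) in SD-S, and TCALIF_06728 (3.15) and TCALIF_04517 (3.05) in BB-N. In the same tables the 3 genes lay between -0.25 and 0.53.

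Genes of like pattern were sought among 11285 genes present in all 12 tables with a mean of at least 10 cpm, by Pearson's r of log2 levels over the 32 libraries after the mean of each population and suffix was taken away. The libraries share treatments, so r is given as a description. The Hsp40 gene TCALIF_05614 was most like the Hsp40 transcript comp49814_c3_seq5_40727 (r = 0.976), TCALIF_01534, described as an hsp90 chaperone (0.972), and comp33548_c0_seq1_18708 (0.965). The samui-like gene TCALIF_09395 was most like TCALIF_13714 and TCALIF_13715, both described as the small heat shock protein beta-1 (0.980 and 0.964), and TCALIF_09115, described as x-box binding protein 1 (0.964). The ClpX-like gene TCALIF_09890 had lower values, 0.917 for TCALIF_12390, 0.901 for TCALIF_01587, described as a Lon peptidase N-terminal domain and RING finger protein, and 0.872 for comp51313_c0_seq1_44507. Among the 3 genes themselves r was 0.943 for Hsp40 and samui-like, 0.757 for Hsp40 and ClpX-like, and 0.680 for samui-like and ClpX-like.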

How the data were processed

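Libraries were 100-bp single-end, unstranded and sequenced on Illumina instruments. For SD-S and SC-N the replicates were run on different HiSeq models, whereas those of BR-S and BB-N were run on the same model. In SD-S and SC-N the libraries of a group thus also differ in instrument. The authors mapped reads with CLC Genomics Workbench to genomic and then de novo transcripts, counted those that mapped uniquely, filtered genes under 2 cpm, and scaled libraries by TMM in edgeR. The deposited signal is reads per 1000000 of the TMM-scaled library size, in 12 tables of 4 libraries each. The log2 fold changes, log2 mean cpm and p-values with their FDR, deposited by the authors in the same tables, hold their own comparisons and were not used. A further 4 library columns repeat values and were not used.

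Whole reads were recovered from the values (100% within 0.001 reads). The test was limma 3.58.1 (R 4.3.3) on log2(value + 1), with a variance trend, the column suffix as a block (the study used the lane), and Benjamini-Hochberg adjustment over all genes of a table. Tests are two-sided and genes with an adjusted p under 0.05 are called. Folds understate the change of low genes because of the pseudocount of 1. The alternatives were edgeR 4.0.16 (likelihood ratio and quasi-likelihood tests) and DESeq2 1.42.0 on recovered reads, no block, no TMM scaling, a pseudocount of 0.25, a mean of at least 10, no variance trend, and all 8 libraries of a population with each library left out in turn. The test functions were tested on simulated data. Joint levels use TMM over the genes of all 12 tables.

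Column names gave the population and treatment. The suffix was not matched to replicate numbers, and the correlation of same-suffix deviations lay between -0.267 and 0.475. p-values rest on the spread between 2 pools and on the variance trend across genes, and on the trend alone in SC-N 28V vs 20V and SD-S 20V vs 20NV. The members and lists were chosen with earlier results of these data known. Named were the 3 genes, transcripts with their descriptions, the 2 listed genes with the largest rise and fall among those called, and the 3 genes of highest r. None of the 21556 identifiers matched the RefSeq gene table, so no sequence or position is given. The genome build is not given in the sources used here.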

Additional observations from a re-analysis of the deposited data

Results flagged for a closer look

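The Hsp40 gene TCALIF_05614 differed in sign between populations in 20V against 20NV. In SC-N the log2 difference was -0.47, negative in both libraries. In BB-N it was 0.22, positive in both libraries (0.19 and 0.25). In SD-S it was 0.16, from 0.32 in library a and 0.0049 in library b, so library b hardly differed. In BR-S it was 0.04, with opposite signs in the libraries (0.18 and -0.10). The groups overlapped in BB-N, SD-S and BR-S. A test of the difference itself, added after these signs had been seen, missed the threshold (limma interaction, SC-N minus BB-N -0.69, SE 0.17, unadjusted p = 0.00771, adjusted p = 0.0918). In that interaction 4675 of 16439 genes, or 28.4%, had an unadjusted p under 0.05, and 0 genes were called. For SD-S minus SC-N it gave 0.63 (SE 0.26, adjusted p = 0.365). SC-N and BB-N were sequenced in different lanes, and SD-S and SC-N in the same lanes.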

How the results depend on the processing

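The counts of the 3 genes called depended on the fit. In 28V vs 20V the count in SD-S was 0 in the limma fit and 1 with the edgeR likelihood ratio test and with DESeq2. In BR-S it was 1 in the limma fit, 0 with no replicate block and 0 with all 8 libraries. In SC-N it was 2, against 0 with no replicate block, the likelihood ratio test, DESeq2 or all 8 libraries, and 1 with the quasi-likelihood test, a pseudocount of 0.25, a mean of at least 10 or no variance trend. In BB-N it was 1, against 3 with the likelihood ratio test, DESeq2 or no TMM scaling, 2 with a pseudocount of 0.25, and 0 with no replicate block or no variance trend, and the 1 gene called with all 8 libraries was the ClpX-like gene in place of the samui-like one. With 1 library left out in turn, the ClpX-like gene ran between 2.33 and 2.94 on the log2 scale in BR-S. In SC-N the Hsp40 gene ran between 1.40 and 1.91 and the samui-like gene between 1.20 and 1.63. In BB-N the samui-like gene ran between 0.82 and 0.92. Of all genes, 0 were called in BR-S and SC-N with no replicate block and with all 8 libraries. In BB-N 0 were called with no variance trend and 21 with no replicate block. Where 0 of all genes were called, a count of 0 is not particular to the 3 genes. In 20V vs 20NV the count stayed 0 in each setting run. That of the 18 differences in 28V vs 20V stayed 0 in the 6 alternatives run for them. The cause was not tested. The log2 differences in 28V vs 20V kept their sign except the ClpX-like gene in SC-N, which ran between -0.013 and 2.15 with 1 library left out. In 20V vs 20NV the ClpX-like gene in BR-S turned to 0.054 with the likelihood ratio test, 0.060 with the quasi-likelihood test, 0.018 with DESeq2 and 0.060 with no TMM scaling, and ran between -0.45 and 0.44 with 1 library left out. Also with 1 library left out, signs turned for the Hsp40 gene in SD-S (-0.018 to 0.32) and BR-S (-0.066 to 0.15), the samui-like gene in SD-S (-0.24 to 0.41) and the ClpX-like gene in SD-S (-0.77 to 0.28). Over all genes the calls in SC-N 28V vs 20V were 374 in the limma fit and 0 to 283 in the other fits with all libraries kept. They were far more without 28V library b, where 1 library is left in the group, so no call of the 3 genes is read from that fit. With 2 pools a group, the lone library left in a group is assumed to vary like the others.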
